A study of Mus musculus with 8 samples.

Results

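The acute phase proteins followed here are 10 plasma proteins, encoded by Saa1, Saa2, Saa3, Saa4, Orm1, Orm2, Hp, Hpx, Lcn2 and Cp. They were chosen by name, and every probe set that the platform annotation gives to one of them was kept, which made 19 of the 45037 probe sets tested. No probe set was annotated to more than 1 of these genes. The target sequence of 1 of the 2 Saa1 probe sets, 1419075_s_at, carries a RefSeq accession that belongs to Saa2, so that probe set was marked as shared between the 2 genes. Cp was read by 8 probe sets, Saa1 and Saa4 by 2 each, and the other genes by 1 each.

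Acute phase proteins are secreted mainly by hepatocytes, and their plasma levels rise within hours of infection or injury. Macrophage cytokines, chiefly interleukin-6 and interleukin-1, reach hepatocytes and activate Stat3, C/EBP factors and NF-kB, while glucocorticoids reinforce the response. In healthy liver Hp, Hpx, Cp and the orosomucoids are made at all times, whereas Saa1 and Saa2 are known for their very large induction.

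Whole liver RNA came from 8 young adult male mice, each on its own Affymetrix mouse expression array. The controls were 4 txnrd1 cond/+ albCre0 mice (animals 70, 71, 80 and 82), which carry a conditional and a wild-type allele of Txnrd1, the thioredoxin reductase of the cytosol, and no Cre. The other 4 mice were txnrd1 cond/- albCre1 (animals 69, 72, 73 and 81), which carry the conditional allele over a null allele and 1 copy of a Cre transgene. All had been kept alone in a cage for 10 days and were harvested in the early afternoon, with no challenge named in the labels. Cre is driven by the albumin promoter, so the conditional allele is lost in hepatocytes, while the other liver cells of these mice remain cond/- and those of the controls cond/+. The groups therefore differ in Cre and in the second Txnrd1 allele as well as in hepatocyte Txnrd1. The deposited values are linear ratios, scaled so that a probe set has a median close to 1 over the arrays. A ratio of 1 is thus near the middle of the 8 livers, and neither the abundance of an mRNA nor the levels of different mRNAs can be read from it.

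The 3 Txnrd1 probe sets did not move together: 1421529_a_at was higher in all 4 txnrd1 cond/- albCre1 livers than in any control (log2 difference 1.11 ± 0.26, SE). The others, 1424486_a_at and 1424487_x_at, fell by 0.71 and 0.41 on the log2 scale. For 1424487_x_at every txnrd1 cond/- albCre1 liver lay below every control. For 1424486_a_at the groups overlapped slightly, with animal 69 at 0.997 and control animal 71 at 0.993. The adjusted p was 0.9998 for each in limma with Benjamini-Hochberg adjustment. Whether they lie in the deleted stretch is not known here, so they do not check the genotype labels. By other assays the paper reported allele conversion and a strong loss of functional Txnrd1 mRNA and protein in livers of this genotype. Whether the livers on the arrays were among those assayed is not stated. Over all 45037 probe sets, 12 (0.0266%) passed an adjusted p of at most 0.05 with a 1.5-fold difference. Markers of hepatocytes, neutrophils, macrophages, endothelial, stellate, T and B, bile duct and erythroid cells gave 0 called genes (0.0824% of all genes were). Because ratios keep no level, these markers cannot show which cell types were present.

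To show the sequences next to the genes they control, 250 bases upstream of annotated starts were taken from RefSeq (GRCm38.p6), which had an entry for 8 of the 10 genes and not for Hp or Orm1. Lcn2 and Orm2 are shown because they varied most between animals among the genes with an entry, Hpx because it varied least, and Saa2 because its upstream sequence is nearly that of Saa1. Capitals mark the letters TTGCNNAA on either strand, the core bound by C/EBP factors, which are activators of acute phase genes, and in Hpx also TGACNNNGC, the core of the antioxidant response element bound by Nrf2.
Lcn2, chr2:32387740-32387989, minus strand: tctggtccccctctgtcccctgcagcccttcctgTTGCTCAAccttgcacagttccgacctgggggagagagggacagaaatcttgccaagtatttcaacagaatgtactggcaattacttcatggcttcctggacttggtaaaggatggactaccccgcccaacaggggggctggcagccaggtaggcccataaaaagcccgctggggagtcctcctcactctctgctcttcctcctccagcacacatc
Orm2, chr4:63362199-63362448, plus strand: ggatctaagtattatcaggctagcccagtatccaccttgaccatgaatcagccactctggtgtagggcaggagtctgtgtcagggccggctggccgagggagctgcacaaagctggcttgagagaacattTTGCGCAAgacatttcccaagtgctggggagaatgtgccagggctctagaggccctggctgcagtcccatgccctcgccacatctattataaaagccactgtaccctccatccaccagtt
Hpx, chr7:105600117-105600366, minus strand: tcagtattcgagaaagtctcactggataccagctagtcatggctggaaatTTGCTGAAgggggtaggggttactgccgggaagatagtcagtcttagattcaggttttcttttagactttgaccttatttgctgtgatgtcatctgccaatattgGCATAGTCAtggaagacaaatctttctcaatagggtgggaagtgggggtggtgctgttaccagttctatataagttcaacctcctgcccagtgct
Saa2, chr7:46751583-46751832, plus strand: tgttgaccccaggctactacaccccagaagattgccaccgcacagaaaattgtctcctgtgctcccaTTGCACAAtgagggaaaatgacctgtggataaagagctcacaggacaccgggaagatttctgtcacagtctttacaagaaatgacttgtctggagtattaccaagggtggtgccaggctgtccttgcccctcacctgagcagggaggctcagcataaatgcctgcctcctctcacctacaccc

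The C/EBP letters occurred in the windows of all 8 genes with an entry, in 8 of 9 windows, against 9.56% of all 32851 windows and 10.8% of all 27025 genes with an entry. Their place ran from the Saa4 copy at positions -52 to -45, counted back from the start, to another Saa4 copy at -245 to -238. The matched letters were TTGCACAA in Saa1 and Saa2, TTATGCAA in Saa3, TTGCGCAA in Orm2, TTGCTGAA in Hpx and TTGCTCAA in Lcn2. The window of Cp that held them was the downstream 1 of 2. Of the other positive acute phase genes listed for comparison, 5 of 16 with an entry held the C/EBP letters, as did 4 of 9 genes of negative acute phase proteins. The STAT letters TTCNNNGAA (7.02% of all windows) and the NF-kB consensus (7.25%) occurred in none of the 9 windows, and the antioxidant element letters (10.2%) in Hpx alone. In the comparison lists, 6 of 16 other positive and 0 of 9 negative acute phase genes held the STAT letters (8.13% of all genes). The NF-kB consensus occurred in 1 of 16 and 1 of 9 (8.23% of all genes). The letters were chosen after some of these windows had been read, so the shares are a description, and a match is not a binding site. Over the aligned part of the upstream windows, Saa1 and Saa2 were identical at 238 of 249 bases (95.6%). The windows of Saa1 and Saa3 lie upstream of a shorter transcript and overlap the annotated gene, and are not printed. The Cp windows, also not printed, overlap the annotated gene too, and the downstream 1 lies wholly within it.

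None of the 19 probe sets passed the test between the genotypes, and the groups overlapped in 18 of them. With limma and Benjamini-Hochberg adjustment over all 45037 probe sets, 0 of 19 were called (0.0266% of all were), the adjusted p being 0.9998 for each. At the study's thresholds, taken as a 1.5-fold difference with an unadjusted p of at most 0.05, 0 of 19 passed (0.562% of all did), and at that p alone again 0 (1.82% of all). The last share lies below the 0.05 that p-values give on average with no difference anywhere, so the test may be conservative. Probe sets read on the same arrays are not independent, however, and the share can stray from that average. How well the test is calibrated on these arrays was not tested. In txnrd1 cond/- albCre1 livers 12 probe sets were lower (48.8% of all were) and 7 higher, with a median log2 difference of -0.08 over the 19 against 0.00 over all. By gene, 0 of 10 were called (0.0824% of 18193 genes were), 0 met the study's thresholds, and 6 were lower (48.9% of all were) and 4 higher. In whole liver, fewer cells that make an mRNA and less of it per cell cannot be told apart.

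How far the data bound a difference varied between the genes. All 19 of the 95% intervals from limma included 0. The interval lay within 1.5-fold either way for 10 of 19 probe sets and within 2-fold for 16. The widest was that of Lcn2, from 0.781-fold to 3.40-fold, and the narrowest that of Hpx, from 0.808-fold to 1.11-fold. A change of the Hpx array signal by 1.5-fold thus lay outside its interval, while a tripling of the Lcn2 signal did not. How closely the signal follows the amount of mRNA cannot be read from ratios. Past 1.5-fold stood 1 probe set, that of Lcn2 (0.935% of all probe sets), which was higher in txnrd1 cond/- albCre1 livers.

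**Figure D1:**
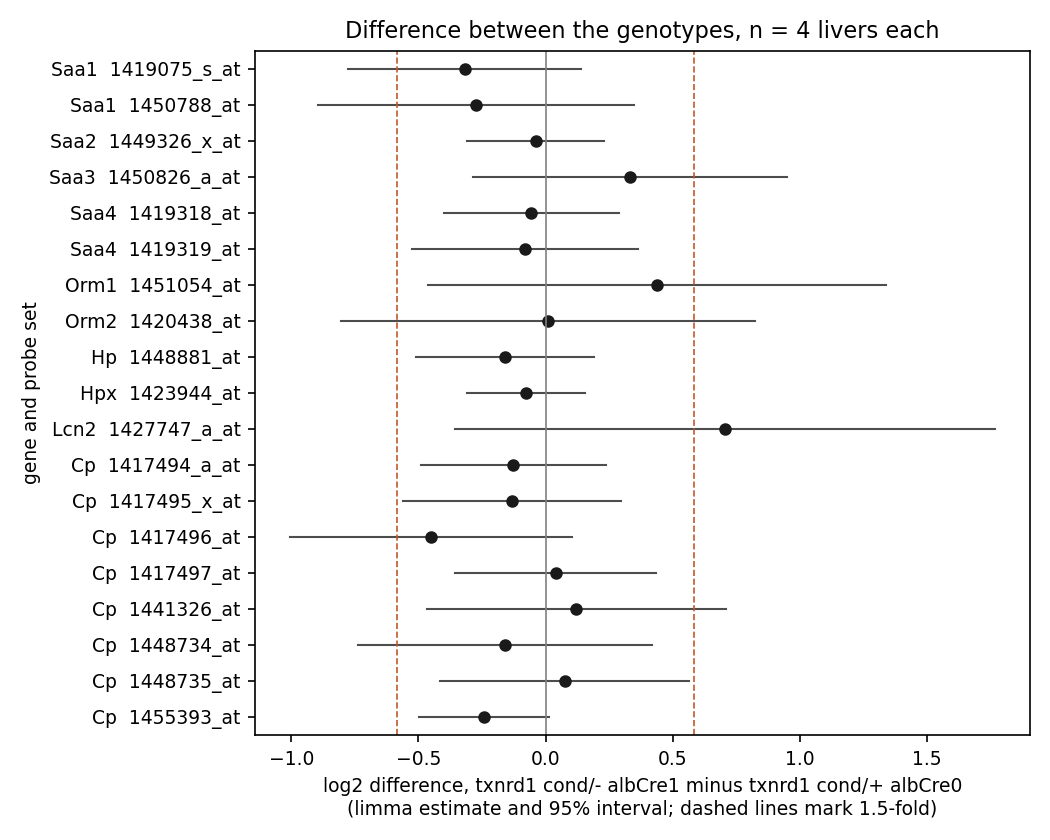
The log2 difference of each probe set (txnrd1 cond/- albCre1 minus txnrd1 cond/+ albCre0, x axis) from limma is drawn as a point with its 95% interval, and dashed lines mark 1.5-fold. All 19 intervals cross 0, and that of Lcn2 is the widest.

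The serum amyloid A proteins are small apolipoproteins that ride on high density lipoprotein. Saa1 and Saa2 are the strongly inducible liver forms. The probe set of Saa1 alone, 1450788_at, stood at 1.95, 0.797, 1.45 and 0.929 in txnrd1 cond/+ animals 70, 71, 80 and 82, and at 1.07, 0.795, 1.29 and 0.888 in txnrd1 cond/- albCre1 animals 69, 72, 73 and 81. Control animals 70 and 80 lay above every txnrd1 cond/- albCre1 liver, while the other controls lay within that group's range. The shared probe set, 1419075_s_at, read 1.59, 0.865, 0.964 and 1.45 in the controls and 1.01, 1.02, 0.976 and 0.791 in the other group. Animal 70 was again highest, but animal 82 came next, where the probe set of Saa1 alone had animal 80. Their log2 differences were -0.28 ± 0.28 and -0.32 ± 0.21 (± SE, n = 4 each), and without animal 70 they were -0.042 and -0.18.

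Saa2, read by 1449326_x_at, whose suffix means that some of its probes can bind other mRNAs, stood at 1.21, 0.963, 0.966 and 1.03 in txnrd1 cond/+ livers and at 1.00, 1.12, 0.982 and 0.939 in txnrd1 cond/- albCre1 livers. Animal 70 was once more the highest, at a smaller excess, and the difference was -0.04 ± 0.12 (log2 ± SE). Because Saa1 and Saa2 are near copies and array probes can bind both, the level of either alone is uncertain. Over the group-centred livers the shared probe set 1419075_s_at had Pearson r = 0.80 with the Saa2 probe set. With the probe set of Saa1 alone it had r = 0.44. The gene value of Saa1 averages the shared probe set with the other, so it may hold Saa2 signal.

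Saa3, which in mice is also made by macrophages and fat cells, had ratios of 0.994, 0.580, 0.595 and 1.46 in the controls and 0.990, 0.958, 1.24 and 1.07 in the other group. The 4 txnrd1 cond/- albCre1 livers lay inside the range of the controls, which held both the 2 lowest livers and the highest. The log2 difference was 0.33 ± 0.28 (SE), and it ran from 0.15 without animal 71 to 0.60 without animal 82, the latter past the study's thresholds but with no adjusted call. Of the Kupffer cell and macrophage markers 11 of 11 were measured, with 0 called (0.0824% of all genes were). These markers averaged between -0.29 and 0.26 (log2 ratio) in the controls and between -0.30 and 0.15 in the other group. Their part in the Saa3 values was not tested.

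Saa4 is the form made constitutively by the liver. Its probe set 1419319_at stood at 0.795, 0.877, 1.38 and 1.36 in the controls and at 0.888, 1.03, 1.17 and 0.982 in txnrd1 cond/- albCre1 livers, and 1419318_at ordered the livers in nearly the same way (Pearson r = 0.97 over the 8 livers, each group centred on its mean). Animals 80 and 82 were the 2 highest by both probe sets. The differences were -0.08 ± 0.20 and -0.06 ± 0.15 (log2 ± SE), and the direction turned under some other settings.

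Orosomucoids, or alpha-1-acid glycoproteins, bind lipids and drugs in plasma, and Orm1 and Orm2 lie side by side on chromosome 4. Orm1 had ratios of 0.818, 0.989, 0.318 and 1.498 in txnrd1 cond/+ animals 70, 71, 80 and 82, and of 0.826, 1.44, 1.01 and 1.09 in txnrd1 cond/- albCre1 animals 69, 72, 73 and 81. Orm2 had 0.947, 0.966, 2.56 and 0.649 in the same controls and 1.00, 1.01, 1.54 and 1.00 in the other group. In animal 80 Orm1 was at its lowest and Orm2 at its highest of the 8 livers, and in animal 82 Orm1 was at its highest and Orm2 at its lowest. These 2 control livers set the whole range of both genes.

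The log2 differences were 0.44 ± 0.40 for Orm1 and 0.01 ± 0.36 for Orm2 (SE, n = 4 each). Without animal 80 the Orm1 difference was 0.0021, while that of Orm2 was 0.41 and its groups no longer overlapped. Groups separate more readily when fewer livers are compared. The arrays of animals 73 and 80, the 2 highest for Orm2, also had the highest hybridization controls, at 0.46 and 0.38 as mean log2 ratios. The next highest controls, 0.28 and 0.14 in animals 69 and 70, went with Orm2 ratios of 1.00 and 0.947. With the hybridization control level as a covariate the Orm2 difference was -0.0017. A technical part in the Orm2 values was not tested. The orosomucoid mRNAs are alike in sequence, and how far each probe set reads the other gene was not tested.

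Hp, or haptoglobin, captures free haemoglobin, and hemopexin, encoded by Hpx, captures free haem. Hp stood at 1.08, 0.997, 1.501 and 0.950 in the controls and at 0.908, 1.09, 0.999 and 1.00 in txnrd1 cond/- albCre1 livers. Only animal 80 lay away from 1, and the log2 difference of -0.16 ± 0.16 (SE) was -0.015 without it. Hpx stood at 0.991, 1.00, 1.14 and 1.03 in the controls and at 0.964, 0.952, 0.992 and 1.03 in the other group. All 8 livers lay close together, with the highest again in animal 80, and the difference was -0.08 ± 0.10 (log2 ± SE). The within-group SD of Hpx, 0.07 on the log2 scale, was reached or exceeded by 97.1% of all genes.

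Lcn2, or lipocalin 2, withholds iron from bacteria by binding their siderophores, and is made by stressed hepatocytes and stored in neutrophil granules. Its ratios were 0.870, 0.448, 1.76 and 0.330 in txnrd1 cond/+ animals 70, 71, 80 and 82, and 1.23, 1.66, 1.12 and 0.699 in txnrd1 cond/- albCre1 animals 69, 72, 73 and 81. Of the controls, animals 71 and 82 lay below every txnrd1 cond/- albCre1 liver and animal 80 above every one, so that the groups overlapped. The geometric mean was 1.63-fold higher in txnrd1 cond/- albCre1 livers (log2 difference 0.70 ± 0.48, SE; adjusted p = 0.9998, limma with Benjamini-Hochberg adjustment). With each animal left out the log2 difference ran from 0.35 without animal 82 to 1.15 without animal 80, the latter past the study's thresholds but with no adjusted call. Its within-group SD was 0.84 on the log2 scale, a size reached by 0.748% of all genes.

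Of the neutrophil markers 9 of 11 were measured, with 0 called (0.0824% of all genes were). These markers averaged 0.53, -0.06, 0.17 and -0.31 (log2 ratio) in animals 70, 71, 80 and 82. In animals 69, 72, 73 and 81 they averaged 0.23, 0.26, -0.07 and -0.57. The low average of animal 82 came from S100a8 (ratio 0.167) and S100a9 (0.398), while Cxcr2 (1.86) was at its highest of the 8 livers there. The part of neutrophils in the Lcn2 values was not tested. With each group centred on its mean, the 8 genes outside the 10 whose pattern over the livers was most like that of Lcn2 had Pearson r between 0.961 and 0.972. They were Sall1 (r = 0.972, Spearman rho = 0.952), Cachd1 (r = 0.970, rho = 0.929), Brca1 (r = 0.969, rho = 0.929), Osmr (r = 0.967, rho = 0.881), Cyp39a1 (r = 0.964, rho = 1.000), Adam19 and Tmem185a (both r = 0.962, rho = 0.976) and Osbpl7 (r = 0.961, rho = 0.881). Osmr, a receptor subunit for oncostatin M, also belongs to the cytokine and receptor list described further on. These are the closest of 18193 genes over few livers and carry no test.

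Cp, or ceruloplasmin, is the copper ferroxidase of plasma. Its 8 probe sets did not describe 1 common pattern. The log2 differences ran from -0.45 for 1417496_at to 0.12 for 1441326_at, with 5 probe sets lower and 3 higher, and pairwise correlations over the group-centred livers ran from r = -0.71 to 0.90. At gene level the 8 together gave -0.11 ± 0.11 (log2 ± SE).

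The probe set 1455393_at of Cp was the single one of the 19 whose groups did not overlap (1.46% of all probe sets did not), and it had the smallest unadjusted p, 0.0608 in limma. It stood at 1.03, 1.04, 1.14 and 1.30 in txnrd1 cond/+ livers and at 0.958, 0.960, 0.908 and 0.960 in txnrd1 cond/- albCre1 livers. The difference was small, 0.845-fold with a 95% interval from 0.708 to 1.01. The largest fall, that of 1417496_at, had ratios of 0.845, 1.17, 1.15 and 1.32 in the controls and 0.564, 1.32, 0.819 and 0.708 in the other group. Animal 72 of that group stood with the controls, and without it the log2 difference was -0.68, past the study's thresholds but with no adjusted call, while without animal 69 it was -0.28.

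**Figure D2:**
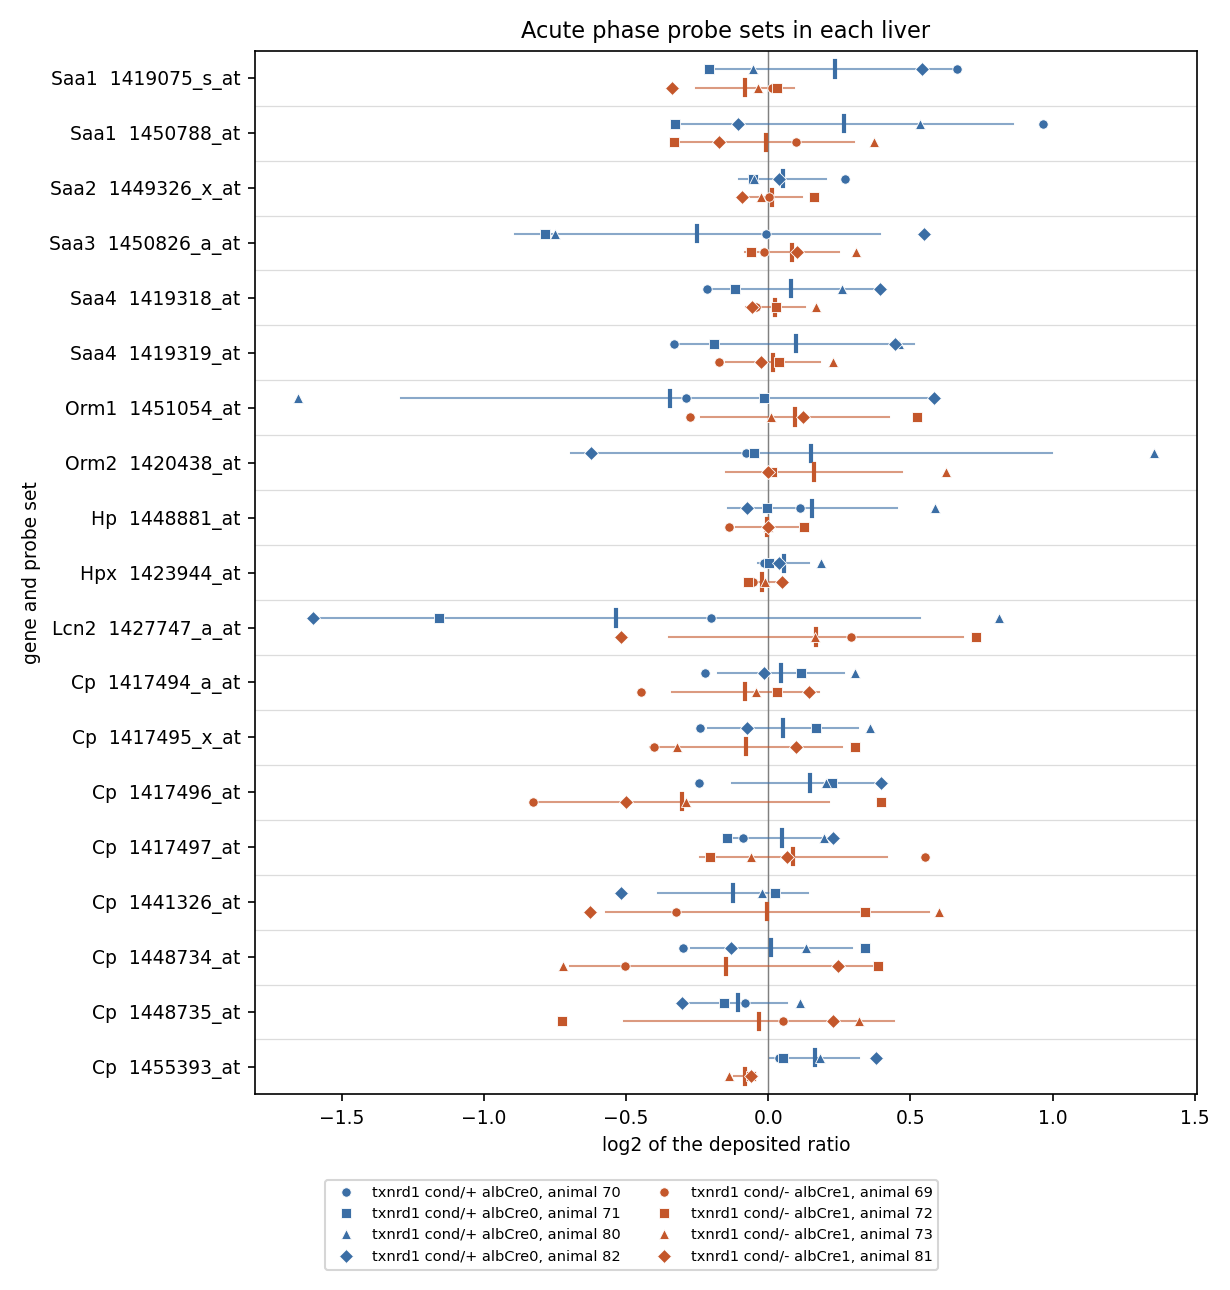
Each point is 1 liver, as the log2 of the deposited ratio (x axis), for every probe set of the 10 genes; vertical ticks are group means and horizontal lines are mean ± SD (n = 4). Points of the genotypes overlap in 18 of 19 probe sets, and for Lcn2, Orm1, Orm2 and Saa3 the txnrd1 cond/+ livers span the wider range.

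The spread between animals was set beside the means. At gene level the SD of log2 ratios over 4 animals was larger in txnrd1 cond/+ livers for 10 of 10 genes, where 56.7% of all genes had the larger SD in that group. The median SD over the 10 genes was 0.40 in txnrd1 cond/+ and 0.15 in txnrd1 cond/- albCre1 livers, against 0.20 and 0.18 over all genes. By probe set the medians were the other way round, 0.28 and 0.31 over the 19. For Lcn2 the SDs were 1.07 and 0.52, for Orm1 0.95 and 0.33, for Orm2 0.85 and 0.31, and for Saa3 0.64 and 0.17. The count by probe set was 12 of 19 (56.6% of all), made of 11 of 11 outside Cp and 1 of 8 of Cp.

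The wider control range rested on few animals, and no test of it was made. With animal 80 left out the count was 7 of 10 genes (51.2% of all genes), with Hp, Hpx and Cp turned. Without animals 80 and 82 together, a choice made after seeing the values, it was 5 of 10 (37.2% of all genes). Animal 80 was the highest liver for 7 of 19 probe sets and the lowest for 1, and animal 82 the highest for 5 and the lowest for 2. These 2 animals were the highest or lowest of the 8 for 29.8% and 36% of all probe sets. The larger SD also fell to the controls in 15 of 19 other positive acute phase genes, 6 of 11 negative ones and 5 of 9 hepatocyte markers. It did so in 21 of 31 cytokine and signalling genes and 8 of 10 partners of serum amyloid A. For the glucocorticoid and the haem and iron lists the counts were 8 of 13 and 7 of 13. In the other marker lists the share ran from 2 of 5 (bile duct) to 5 of 8 (endothelial).

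**Figure D3:**
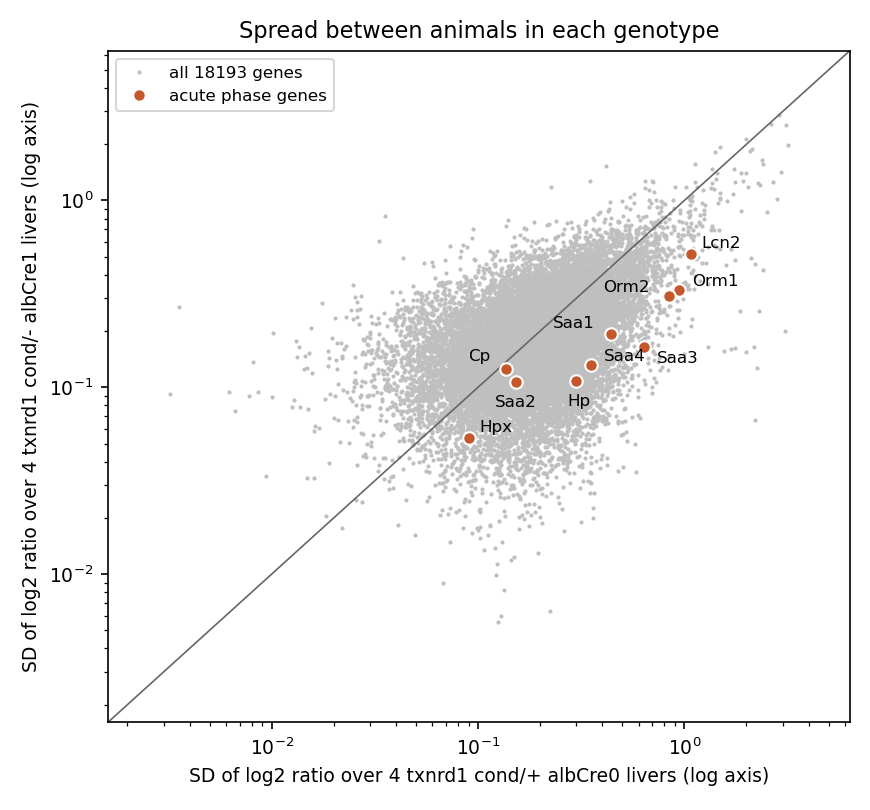
For each gene the SD of log2 ratios over 4 txnrd1 cond/- albCre1 livers (y axis) is plotted against that over 4 txnrd1 cond/+ albCre0 livers (x axis), both on log axes, with equal SDs on the line. All 10 acute phase genes lie below the line, with Cp nearest to it.

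No animal was high for all of the genes. Animal 70 was highest for Saa1 and Saa2, animal 80 for Orm2, Hp, Hpx, Lcn2 and Cp, and animal 82 for Saa3, Saa4 and Orm1. Averaged over the 10 genes, the log2 ratio lay between -0.24 (animal 71) and 0.13 (animal 80) in the controls and between -0.07 (animal 81) and 0.14 (animal 72) in the other group, so the groups overlapped.

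**Figure D4:**
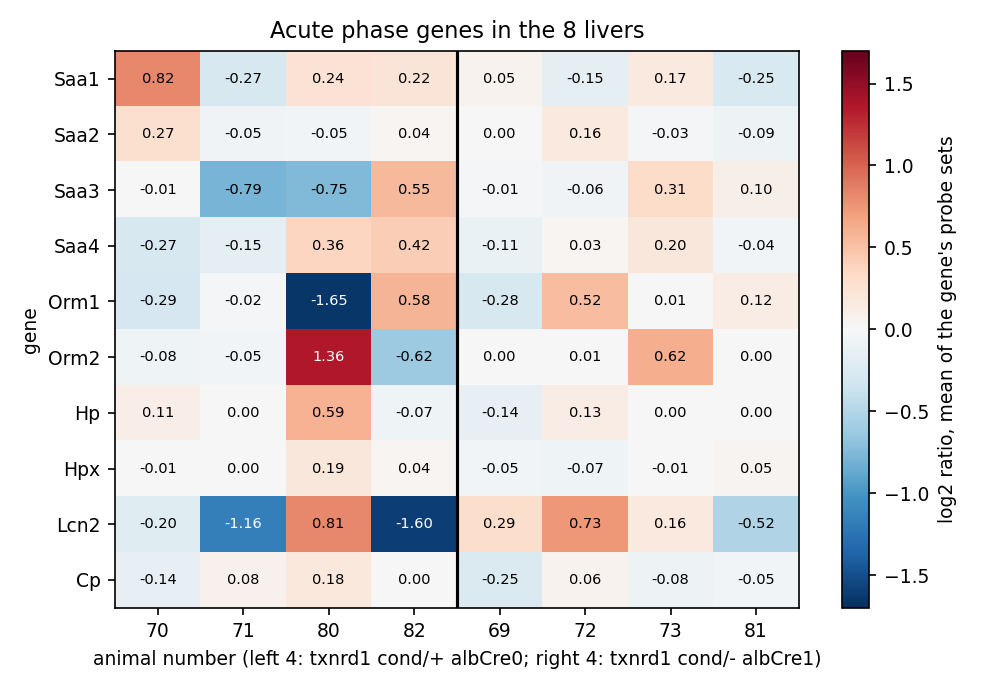
Each cell gives the log2 ratio of 1 gene (row, mean of its probe sets) in 1 animal (column), with txnrd1 cond/+ albCre0 to the left of the line. The cells furthest from 0 are Orm1 in animal 80 (ratio 0.318), Lcn2 in animal 82 (0.330), Orm2 in animal 80 (2.56) and Lcn2 in animal 71 (0.448), and no animal is high or low for all 10 genes.

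Genes around these proteins were described by 6 lists holding 102 different genes, of which 93 were measured, with 0 called after adjustment (0.0824% of all genes), 3 at the study's thresholds (0.654%) and 5 at an unadjusted p of at most 0.05 (2.32%). Other positive acute phase proteins had a median log2 difference of -0.18 over 19 genes, 5 higher and 14 lower, against 0.00 over all genes. Lrg1, a leucine-rich glycoprotein induced with the acute phase, stood at 0.968, 1.03, 1.78 and 1.86 in the controls and at 0.755, 0.851, 0.667 and 1.25 in the other group. It met the study's thresholds (log2 difference -0.66 ± 0.26, SE) with an adjusted p of 0.9999 in limma. Steap4, a metalloreductase, had a smaller difference of -0.37 ± 0.13 (SE; unadjusted p = 0.0196 and adjusted p = 0.9999, limma).

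Hamp, which encodes the iron hormone hepcidin, varied most: from 0.0627 to 6.44 in the controls and from 0.204 to 4.61 in the other group. Animal 82 was the highest and the other 3 controls the lowest, and the log2 difference was 2.55 ± 1.47 (SE). The metallothionein genes Mt2 and Mt1, which are also in the glucocorticoid list, differed by 1.17 ± 0.82 and 0.51 ± 0.69 (SE). The controls alone ran from 0.161 to 2.54 for Mt2 and from 0.311 to 2.98 for Mt1. Of negative acute phase proteins, which fall in inflammation, 11 genes had a median of -0.07, 4 higher and 7 lower. The largest difference was -0.19 ± 0.30 (SE) for Serpina6, the corticosteroid carrier. The coagulation factor F12 differed by -0.13 ± 0.16 and the growth factor Igf1 by -0.12 ± 0.13.

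The cytokines, receptors and signalling genes that drive the response had a median log2 difference of -0.09 over 31 genes, 11 higher and 20 lower. Il6ra, the interleukin-6 receptor, stood at 1.14, 0.908, 1.86 and 1.41 in the controls and at 1.03, 0.983, 0.984 and 0.761 in the other group, a difference of -0.46 ± 0.21 (SE; unadjusted p = 0.0532, limma). Il1b and Socs3, which encode interleukin-1 beta and the feedback inhibitor of Stat3, differed by -0.30 ± 0.44 and -0.26 ± 0.33 (SE). Both were highest in animal 70, as Saa1 was. Socs3 was next highest in animal 81 (1.27), where Saa1 was at 0.838. A link between these genes and Saa1 was not tested. The glucocorticoid receptor and response genes had a median of -0.22 over 13 genes, 4 higher and 9 lower. Dusp1, a phosphatase induced by glucocorticoids, ranged from 0.196 to 2.42 in the controls and from 0.247 to 1.72 in the other group.

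Genes that clear haemoglobin, haem and iron downstream of Hp and Hpx had a median of 0.09 over 13 genes, 9 higher and 4 lower. Blvrb, a biliverdin reductase, stood at 0.576 to 0.791 in the controls and 1.199 to 1.90 in txnrd1 cond/- albCre1 livers, and met the study's thresholds (log2 difference 0.95 ± 0.17, SE; adjusted p = 0.20, limma with Benjamini-Hochberg adjustment). Hmox1, which opens the haem ring, was at 5.96 in animal 81 and between 0.564 and 1.52 in the other 7. The iron exporter gene Slc40a1 differed by 0.39 ± 0.19 (log2 ± SE). Fth1, a ferritin subunit, differed by 0.28 ± 0.11 (log2 ± SE; unadjusted p = 0.0310 and adjusted p = 0.9999, limma). Receptors and lipoprotein partners of serum amyloid A had a median of -0.03 over 10 genes, 5 higher and 5 lower. Cd36, a scavenger receptor, stood at 0.417 to 0.852 and at 1.28 to 2.14, and met the study's thresholds (log2 difference 1.21 ± 0.24, SE; adjusted p = 0.31, limma). Scarb1, the lipoprotein receptor SR-BI, differed by -0.33 ± 0.15 (unadjusted p = 0.0603, limma), and Ager, the receptor RAGE, by -0.19 ± 0.15. The study's own comparison was drawn from the same livers, so the directions of Blvrb and Cd36 here are not independent evidence.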

How the data were processed

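Liver RNA of 8 mice was hybridized to 1 Affymetrix mouse expression array each. The authors deposited linear ratios, with each array's median near 1 (0.997 to 0.999) and 99.0% of probe sets having a median over the arrays within 5% of 1. The methods name GeneSpring and the submitters' processing notes RMA (version not given in the sources used here). The study's minimum signal cannot be applied to ratios. The table holds 45101 probe sets, of which the 64 array controls were not tested. Symbols came from the platform annotation, updated through RefSeq (GRCm38.p6): 34945 probe sets have 1, 932 several and 9160 none. A gene is the mean log2 ratio of its probe sets with 1 symbol. The 5 empty values were left empty. Genotypes were compared with limma 3.58.1 (lmFit and eBayes, 2-sided) in R 4.3.3 on log2 ratios, with Benjamini-Hochberg adjustment over all probe sets or genes. Folds are between geometric means. Code was tested on simulated data. Python 3.11.15 with matplotlib 3.10.9 drew the figures and Biopython 1.88 aligned the sequences. Each liver is a separate animal, and precision is limited by how many arrays there are.

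The 10 genes, the lists and the rule for named genes were chosen with earlier results of these data known. Named are all probe sets of the 10 genes, the Txnrd1 probe sets, list genes past a threshold, the 3 largest differences of each pathway list and the genes most like Lcn2. Steap4, Fth1 and the neutrophil genes S100a8, S100a9 and Cxcr2 were named after their values were seen. List genes read by no probe set with 1 symbol were not analysed here. Alternatives were other scalings, offsets before log2, robust and weighted fits, tests of each probe set alone, a covariate for the range of animal numbers (69 to 73 or 80 to 82), a filter on the SD, other ways to join probe sets, and each animal left out in turn. Chosen after seeing the data were the array controls as covariates and the spread without animals 80 and 82.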

Additional observations from a re-analysis of the deposited data

Results flagged for a closer look

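In each group of 4 livers, the gap between the most extreme liver and its nearest neighbour was set against the range of the group, for the 38 groups of the 19 probe sets. A ratio above 0.829 was passed by 3 of 38, and chance passes about 1 group in 20. For Orm2 (1420438_at) the highest txnrd1 cond/- albCre1 liver, animal 73 at a ratio of 1.54, stood apart from the other 3, at 1.00 to 1.01 (gap over range 0.979). For Cp (1441326_at) the lowest control, animal 82 at 0.698, stood apart from the others at 0.986 to 1.02 (0.920). For Cp (1455393_at) the lowest txnrd1 cond/- albCre1 liver, animal 73 at 0.908, stood apart from the others at 0.958 to 0.960 (0.963), where the range itself was small.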

How the results depend on the processing

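No setting gave a limma call after adjustment for any of the 19 probe sets. Their count at the study's thresholds, 0, became 1 among the probe sets above the median SD (Lcn2). That setting left 14 of the 19 to test. Over all probe sets it gave 59 limma calls after adjustment, against 12 in the main fit. With each animal left out the count ran from 0 to 1 (Lcn2 without 80, Saa3 without 82, Cp 1417496_at without 72). The share of all probe sets at the study's thresholds is not given for these settings. The count whose groups did not overlap, 1, ran from 1 to 2 with each animal left out (Orm2 without 80, Cp 1417496_at without 72). Groups of fewer livers separate more readily, and the share of all probe sets is not given for those settings. List genes called, 0, became 1 with quantile normalization and with a robust fit (Cd36), and 2 among genes above the median SD (Blvrb, Cd36). Genes with the larger SD in the controls, 10, ran from 7 to 10 with each animal left out and became 5 without animals 80 and 82. The causes were not tested.

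Small log2 differences turned sign. Orm2, at 0.01, was -0.057 with quantile normalization, -0.0025 and -0.026 with offsets of 0.1 and 0.5, and -0.0017 with the hybridization controls as a covariate. Saa4 by 1419318_at, 1419319_at and gene was 0.026, 0.0040 and 0.019 with array weights and 0.0036, 0.016 and 0.0097 with a covariate for animal numbers 69 to 73 or 80 to 82. Cp 1417497_at was -0.0056 in a robust fit and -0.046 with the poly-A controls, which also turned 1448735_at to -0.033. Cp 1441326_at was -0.0041 with array weights and -0.0094 with the animal number covariate. With each animal left out, Saa2 ran from -0.089 to 0.034, Orm2 from -0.25 to 0.41, Saa4 from -0.19 to 0.043 (1419318_at from -0.15 to 0.049, 1419319_at from -0.22 to 0.041), and the Cp probe sets 1417497_at from -0.11 to 0.14, 1441326_at from -0.080 to 0.33, 1448734_at from -0.34 to 0.031 and 1448735_at from -0.041 to 0.31. Directions of the other differences held under every setting run. The labels name no pairs or batches, and no paired analysis was run. The hybridization controls were lowest in animals 71 and 72 (-0.59 and -0.52) and highest in 80 and 73 (0.38 and 0.46), a control and a txnrd1 cond/- albCre1 liver each time. Whether such livers were handled together is not stated, and a block across the groups was not tested. Since ratios keep no signal over background, how near each probe set lay to the background is unknown.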
